A study of Mus musculus with 32 samples.

Results

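A set of 90 features of the mouse forebrain table was at least 2 times more abundant in cortical SST neurons than in each of the 7 other neuron populations that were profiled. The members were chosen by measured values. A member had at least 1 CPM (its count per 1000000 counts of the library) in all 4 SST cortex libraries, and a mean over those libraries of at least 2 times the mean of every other group, SST hippocampus included. The rule left 90 of 56459 features (0.159%), or 0.665% of the 13536 features that reached 1 CPM in all SST cortex libraries. Comparisons of SST cortex with the other groups are therefore given as descriptions, without tests. Tests were run only between groups that do not include SST cortex. The fit behind them used all libraries, those of SST cortex included, for its estimate of the spread.

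RNA labelled as ribosome-associated was sequenced in 32 libraries, 4 for each of 8 groups, in a study titled for ribosome-engaged transcript isoforms of neuron classes. The groups were SST, PV, VIP, Scnn and CamK from cortex and SST, CamK and Grik from hippocampus, all labelled wild type, with no treatment, age or strain in the labels. The labels name neither the driver line behind each group nor the animals behind each library, so p-values measure the spread between these libraries, which may be technical. From knowledge of the field, PV, SST and VIP are taken as GABAergic interneuron classes and CamK, Scnn and Grik as glutamatergic populations.

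Somatostatin interneurons release GABA together with the neuropeptide that names them, and many of them contact the distal dendrites of principal neurons. Martinotti cells of the cortex and O-LM cells of the hippocampus are well-known types of this class. RNA bound to ribosomes reports what a cell type has engaged for translation, which need not equal its total RNA. Each feature has only a GSMG identifier, and 0 of the 90 members were found in the reference name tables. Whether a feature is a gene or a transcript is likewise not stated. No gene role, marker check, genome position or sequence is therefore given, and the label SST rests on the sample titles alone.

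The libraries held between 100158438 and 114153919 counts, except SST hippocampus replicate 1 with 186505391. Values near 0.01 CPM thus rest on about 1 count per library. In these bulk libraries, fewer cells with a transcript and less of it per cell cannot be told apart.

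Together the 90 members made up between 0.677% and 0.992% of the counts of the SST cortex libraries. Their summed level was 8354 ± 1372 CPM in SST cortex and 2866 ± 1336 CPM in SST hippocampus (mean ± SD, n = 4 libraries each, as throughout). In the remaining groups the mean of the sum lay between 416.3 CPM in Grik hippocampus and 679.1 CPM in CamK cortex. A single feature, GSMG0015581, held 48.7% of the sum in SST cortex and 59.9% in SST hippocampus. Without it the sum was 4288 ± 427 CPM in SST cortex, 1148 ± 151 CPM in SST hippocampus and between 403.7 and 665.5 CPM elsewhere. The 4 SST cortex libraries lay above all others in both sums. SST hippocampus came next, and its libraries also stood above those of the 6 remaining groups.

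**Figure D1:**
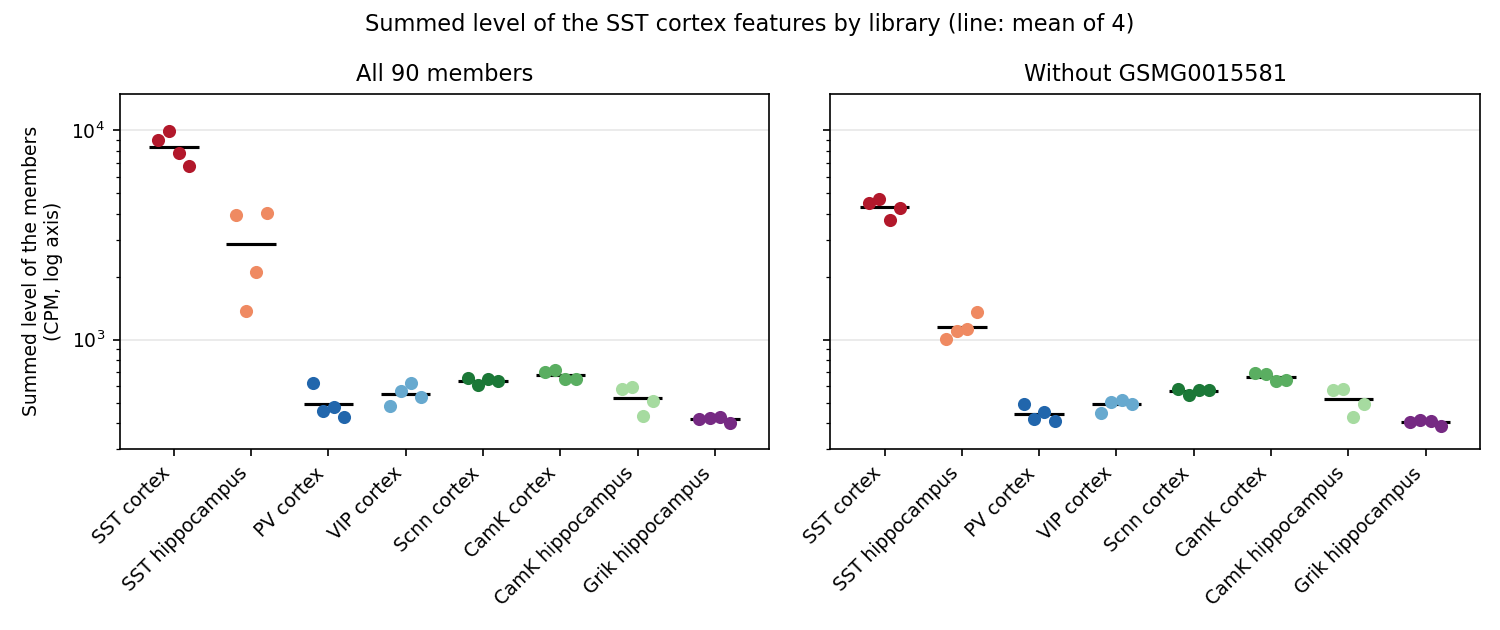
Summed level of the members in each of the 32 libraries, in CPM on a log axis, for all 90 members (left) and without GSMG0015581 (right). Points are libraries and lines are means of 4. SST cortex (means of 8354 and 4288 CPM) is highest by construction of the set, SST hippocampus is next, and its spread narrows on the right.

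Most members were not abundant. In SST cortex 51 had a mean under 10 CPM, 26 lay between 10 and 100 CPM and 13 reached 100 CPM, with a median of 7.84 CPM and a range from 1.33 to 4066 CPM. The median of all 13536 features at 1 CPM in SST cortex was 21.7 CPM. Corrected for the deposited length, the members ran from 0.262 to 6800 CPM per kb, with a median of 4.16 CPM per kb. On that scale GSMG0015581 (598 bases long) was again the highest and GSMG0026306 (584 bases) followed at 1025 CPM per kb. In 27 members every other group had a mean under 1 CPM. In 25 members another group reached 10 CPM or more.

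The distance to the next highest group was mostly modest. The ratio of the SST cortex mean to the highest other mean had a median of 2.71 and quartiles of 2.30 and 3.97. It lay between 2 and 3 in 55 members, between 3 and 5 in 22, between 5 and 10 in 8 and above 10 in 5. The lowest SST cortex library exceeded all 28 other libraries in 89 members. Among the 13536 features at 1 CPM in SST cortex this held for 2.01%, and since the rule used these values nothing is read from the difference. Just inside the limit, GSMG0028820 stood at 46.4 ± 5.69 CPM in SST cortex and 22.9 ± 3.06 CPM in Scnn cortex, a ratio of 2.03. Just outside it, GSMG0003168 stood at 3.06 ± 0.790 CPM in SST cortex and 1.54 ± 0.680 CPM in PV cortex, a ratio of 1.99, and there the libraries of both groups overlapped. Applied to the other groups, the same rule gave between 61 features (SST hippocampus) and 812 (VIP cortex).

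GSMG0023525 had the largest ratio, 18.9. Its SST cortex libraries read 750.8, 1031, 566.8 and 787.5 CPM, and CamK cortex, the next group, read 36.0, 56.7, 41.1 and 32.1 CPM. The lowest SST cortex library was thus about 10 times above the highest library of any other group. In SST hippocampus the feature read 6.35, 4.71, 4.81 and 27.7 CPM, so 3 of these libraries lay near the 5.49 ± 0.970 CPM of PV cortex and replicate 5 stood apart. Its other group means were 18.0 ± 7.18 CPM in VIP cortex, 14.0 ± 5.32 CPM in CamK hippocampus, 13.5 ± 3.92 CPM in Scnn cortex and 8.53 ± 1.303 CPM in Grik hippocampus. From VIP cortex down to Grik hippocampus, neighbouring groups in this order overlapped in their libraries.

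GSMG0038640 came second with a ratio of 17.8, at a far lower level. It read 20.2, 20.6, 19.7 and 22.4 CPM in SST cortex, and no other library exceeded 1.82 CPM. VIP cortex (1.16 ± 0.449 CPM) and Grik hippocampus (1.16 ± 0.218 CPM) were next and did not differ beyond their spread. In SST hippocampus it was at 0.808 ± 0.103 CPM. The coefficient of variation across the SST cortex libraries, 5.76%, lay under the lower quartile of the members, 11.3%.

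GSMG0015581 was the most abundant member. It read 4470, 5209, 4056 and 2531 CPM in SST cortex against 2947, 268.5, 980.4 and 2676 CPM in SST hippocampus. It was the 1 member in which the groups overlapped, since SST hippocampus replicates 1 and 5 exceeded SST cortex replicate 4. The hippocampal libraries differed 11.0-fold among themselves and the cortical ones 2.06-fold. The ratio of cortex to hippocampus was 2.37, and without SST hippocampus replicate 2 it was 1.85, which would leave this feature out of the set. Against the other 6 groups it stood far apart in both regions, 60.5 times the highest of their means in SST cortex and 25.6 times in SST hippocampus. Their means ran from 9.22 ± 3.46 CPM in CamK hippocampus to 67.2 ± 5.29 CPM in Scnn cortex, and their highest library was PV cortex replicate 1 at 127.2 CPM. Its distance from these groups was thus larger than its distance between the regions.

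**Figure D2:**
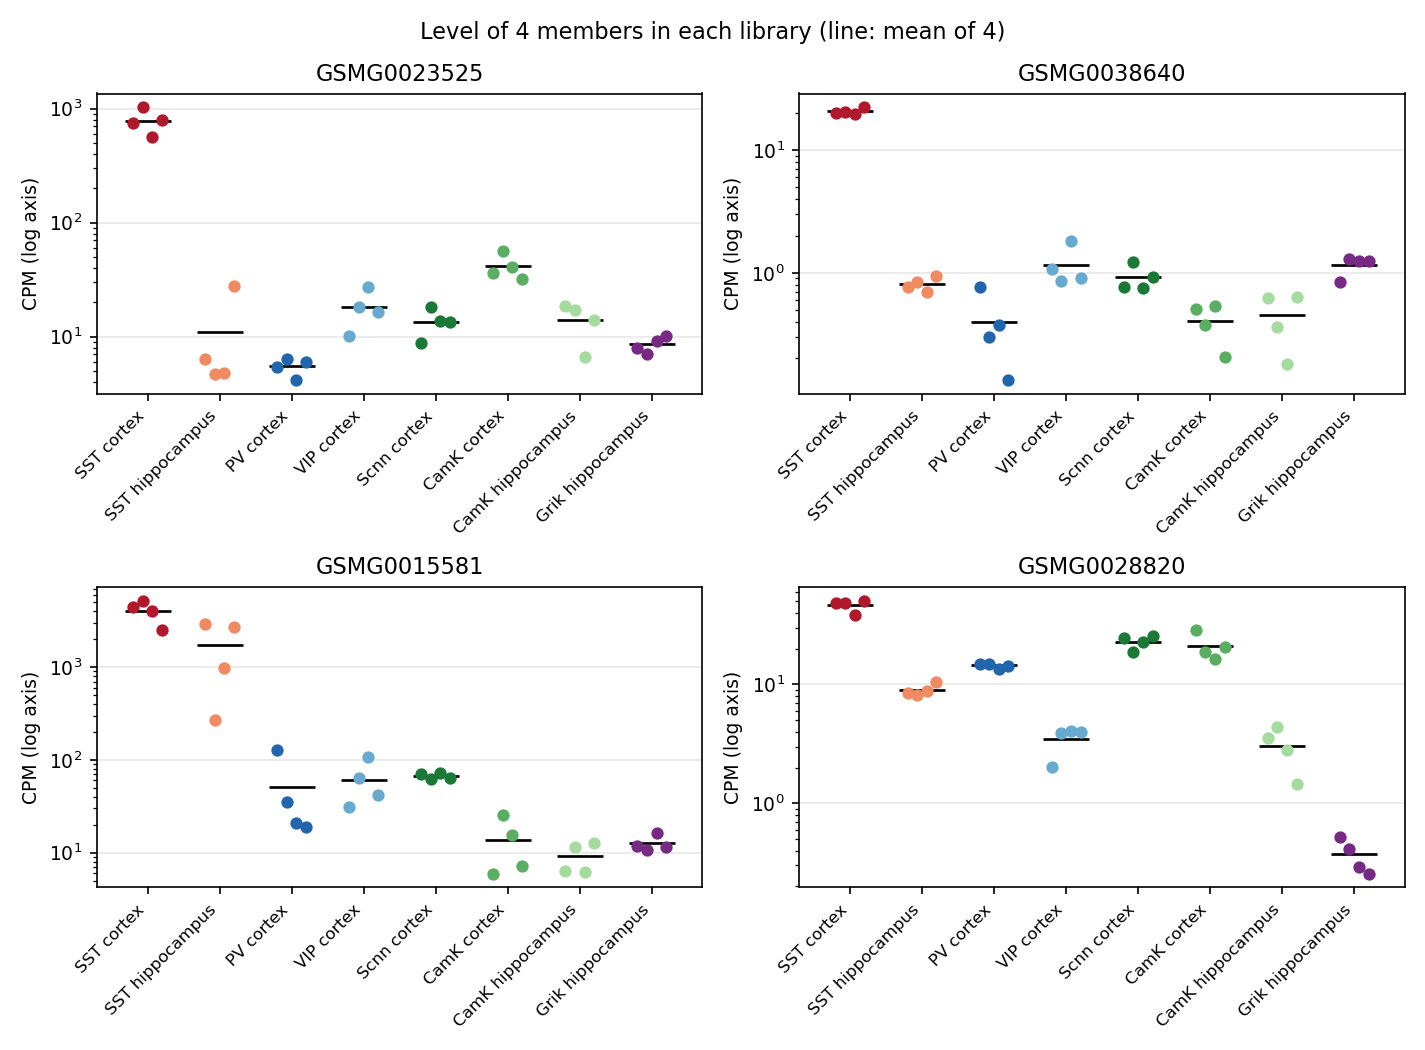
Level of 4 members in each of the 32 libraries, in CPM on a log axis. Points are libraries and lines are means of 4. GSMG0023525 and GSMG0038640 are high in SST cortex and low in SST hippocampus, GSMG0015581 is high in both with hippocampal libraries from 268.5 to 2947 CPM, and GSMG0028820 lies at the 2-fold limit.

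Members differed in what came after SST cortex. The next highest group was SST hippocampus in 50 of 90 members, VIP cortex in 12, PV cortex in 9, CamK cortex in 7, CamK hippocampus in 6, Scnn cortex in 3 and Grik hippocampus in 3. This order is that of the means alone, and groups that follow each other can lie within their spread. GSMG0038640, for example, counts under VIP cortex (1.16 ± 0.449 CPM) with Grik hippocampus at 1.16 ± 0.218 CPM. In the 50 members followed by SST hippocampus, SST cortex had a median of 2.87 times the hippocampal SST mean and 6.41 times the highest mean of the other 6 groups. In the 21 members followed by PV or VIP cortex those medians were 4.08 and 2.39, and in the 19 followed by a glutamatergic group 4.51 and 2.80. Which of the medians is larger in each class follows from how the classes were set, so nothing is read from that order. The last class was also more abundant, with a median of 15.4 CPM in SST cortex against 5.52 and 7.64 CPM in the classes followed by SST hippocampus and by PV or VIP cortex. Counted over all members, SST hippocampus was at least 2 times the highest of the other 6 groups in 27. The share of all features with this, or with SST hippocampus next after SST cortex, was not computed. Neither count is therefore read as particular to the members. SST cortex exceeded SST hippocampus at least 10-fold in 9 members, with a median of 3.43 and a maximum of 72.0, that of GSMG0023525. SST hippocampus has a W in its titles and SST cortex has none, so in all these ratios region cannot be told apart from title series.

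**Figure D3:**
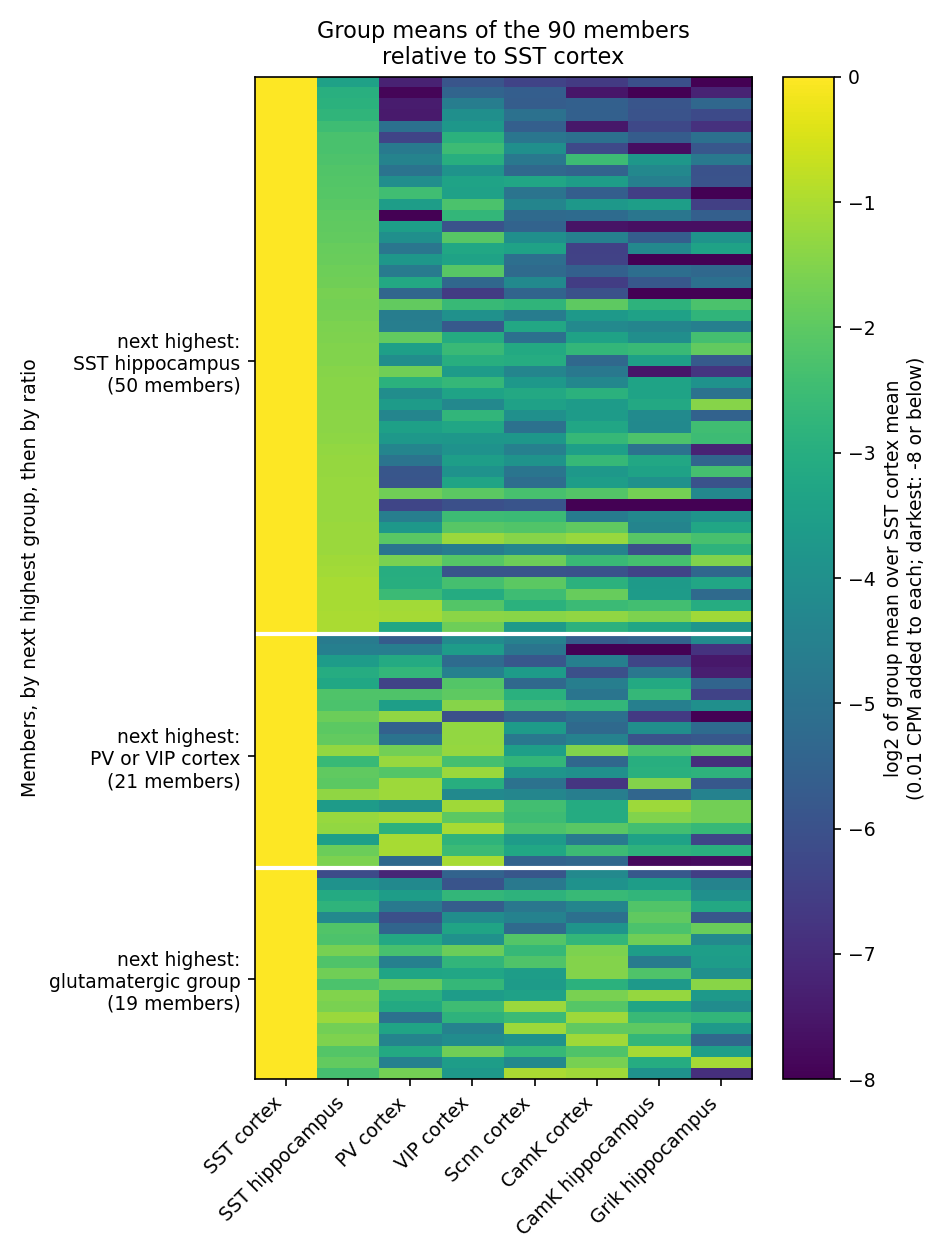
Mean level of each member in the 8 groups relative to SST cortex, on a log2 scale with 0.01 CPM added to each mean, sorted by the next highest group and then by ratio. Rows are the 90 members. The upper block of 50 has a bright SST hippocampus column beside mostly dark columns, and the lower blocks of 21 and 19 spread their next highest values over several groups.

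**Figure D4:**
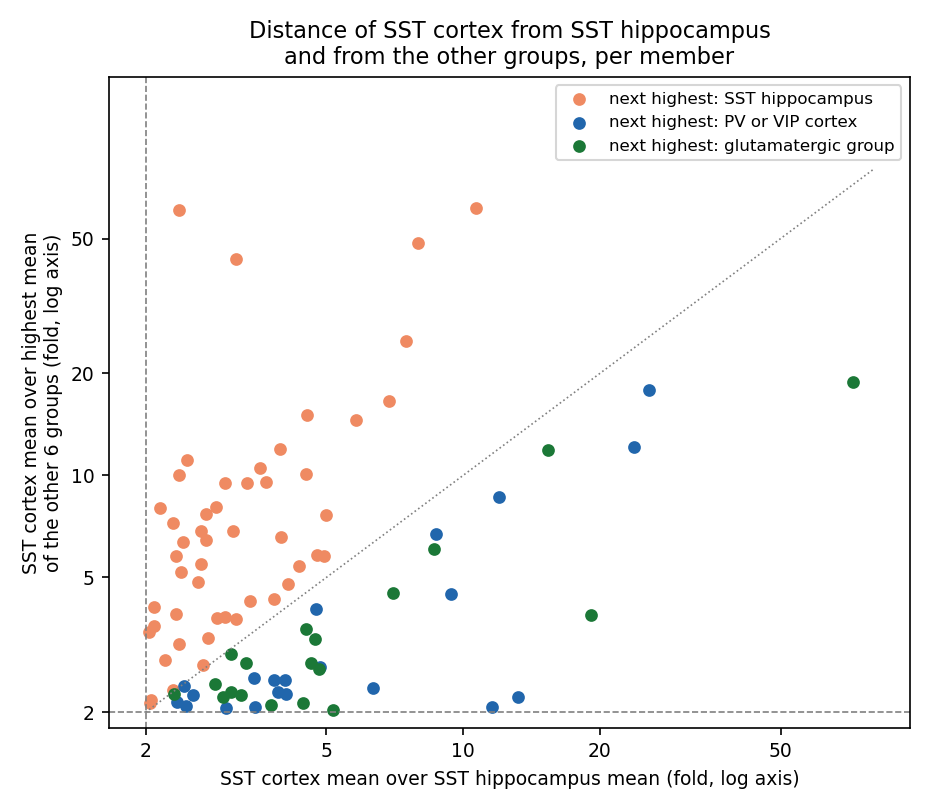
For each member, the ratio of SST cortex to SST hippocampus (horizontal) and to the highest mean of the other 6 groups (vertical), both as folds on log axes. Dashed lines mark the 2-fold limit of the rule and the dotted line equal ratios. The 50 members above the dotted line are by definition those with SST hippocampus as next group, and GSMG0023525 lies furthest right at 72.0.

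In the hippocampal comparison, whose sides hold no SST cortex library, the members were mostly higher in SST neurons than in glutamatergic ones. The SST cortex libraries did enter the shared estimate of the spread behind its p-values. In the comparison of SST hippocampus with the mean of CamK and Grik hippocampus, 64 of 90 members were called higher in SST and 1 was called lower (edgeR quasi-likelihood test, adjusted p under 0.05 and at least 2-fold). Of all 24555 features tested, 16.9% were called higher and 10.1% lower. Among the tested features at 1 CPM in all SST cortex libraries the shares were 12.4% and 9.01%. The median log2 fold change was 2.38 over the members and 0.09 over all features tested, and 84 of 90 members were above 0. The rule capped both sides of this comparison at the same level, and all members passed the filter on low counts through SST cortex itself. Against CamK hippocampus alone 61 members were called higher (16.1% of all features), and against Grik hippocampus alone 65 (13.9%). Only 52 members were called higher against both, and the share of all features with both calls was not computed. A call against the mean of CamK and Grik thus need not hold against each of them. In 57 members all 4 SST hippocampus libraries exceeded all 8 CamK and Grik libraries, as did 25.8% of the features at 1 CPM in SST cortex. The 64 members comprised 43 of the 50 followed by SST hippocampus, 13 of the 21 followed by PV or VIP cortex and 8 of the 19 followed by a glutamatergic group. The classes were set by the same group means, so this split is a description. All 3 populations have titles with a W, a mark whose meaning the labels do not give.

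By fitted log2 fold change, GSMG0019055 and GSMG0011728 came first in this comparison, though the order of the first depends on how 0 counts are treated. GSMG0019055 read 0.338, 0.244, 0.599 and 0.895 CPM in SST hippocampus and had 0 counts in all 8 CamK and Grik libraries. Taking 3 counts over those 8 libraries as the floor, its pooled level in SST hippocampus was 144 times that floor. This ratio leaves out the spread between the SST hippocampus libraries and was not itself tested. The test of a difference between the sides gave an edgeR adjusted p = 4.85e-08. GSMG0011728 read 1.67, 1.66, 1.505 and 2.63 CPM in SST hippocampus. In CamK and Grik it was at 0 in 6 libraries and at no more than 0.0362 CPM in the rest. On the log2 scale the difference was 7.82 (SE 0.59, edgeR adjusted p = 3.59e-13). For both, the groups did not overlap. GSMG0015581 was also higher in SST hippocampus, by 7.21 on the log2 scale (SE 0.59, edgeR adjusted p = 7.64e-11), with all 4 libraries above those of CamK and Grik. GSMG0010507 was the 1 member called lower, at 0.112 ± 0.0365 CPM in SST against 0.654 ± 0.118 CPM in CamK and 0.443 ± 0.170 CPM in Grik. On the log2 scale it differed by -2.39 (SE 0.67, edgeR adjusted p = 0.00325), and without SST hippocampus replicate 5 the number called lower was 2, GSMG0023525 being added.

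The members with the 2 largest ratios were not among the 64. For GSMG0038640 the log2 difference between SST hippocampus and the glutamatergic groups was 0.05 (SE 0.29, edgeR adjusted p = 0.906). For GSMG0023525 it was -0.11 (SE 0.38, adjusted p = 0.83), and that value rested on SST hippocampus replicate 5. Without that library the difference was -1.13 and the feature was called lower in SST hippocampus (adjusted p = 0.00287). Of the 13 members with a ratio of 5 or more, 9 were called higher in SST hippocampus. The median ratio was 2.73 in the 64 members called higher and 2.65 in the other 26.

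Most members were not called between the other interneuron populations and the glutamatergic ones of the cortex. The called shares, 21.1% higher and 13.3% lower, were near those of all features. The share called higher was above that of features at 1 CPM in SST cortex. In PV and VIP cortex against CamK and Scnn cortex, 19 of 90 members were called higher (16.8% of all features) and 12 lower (11.6% of all features), and 59 did not pass. Among features at 1 CPM in SST cortex the shares were 10.2% and 10.7%. The median log2 fold change was -0.01 over the members and 0.09 over all features. Of the 64 members higher in SST than in glutamatergic neurons of the hippocampus, 16 were also called higher in this cortical comparison, 9 were called lower and 39 did not pass, that is 25% higher and 14.1% lower. Of all 4157 features higher in SST hippocampus, 50.8% were also higher in PV and VIP cortex and 5.10% lower, and of the 1672 among them at 1 CPM in SST cortex 51.7% and 6.40%. The rule held PV and VIP of each member under the SST cortex level, so nothing is read from this gap. The sides of these comparisons share no library, though both used the same estimate of the spread. Within the plainly numbered titles, PV cortex alone against CamK and Scnn gave 22 members higher (13.3% of all features) and 17 lower (15.6%). Since only VIP among the cortical groups has W titles, its part in the pooled value cannot be told apart from that series.

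GSMG0023649 was the member with the largest positive value, at 0.994, 1.38, 0.770 and 1.33 CPM in PV cortex and 0.308 ± 0.0913 CPM in VIP cortex. CamK cortex was at 0.0140 ± 0.0178 CPM and Scnn cortex at 0.0700 ± 0.0493 CPM, and the log2 fold change was 3.99 (SE 0.43, edgeR adjusted p = 1.16e-09). GSMG0015572 followed (adjusted p = 0.00172) at means of only 0.0464 CPM in PV, 0.123 CPM in VIP and 0.0281 CPM in Scnn. It had 0 counts in CamK cortex, so its fitted fold depends on the prior count, and PV and VIP both overlapped Scnn. In the other direction GSMG0026306, an abundant member at 598.7 CPM in SST cortex, read 297.8, 216.8, 266.1 and 282.7 CPM in Scnn and 163.3, 144.5, 138.7 and 167.6 CPM in CamK. It stood at 59.5 ± 10.4 CPM in PV and 27.5 ± 9.11 CPM in VIP, which on the log2 scale is -2.49 (SE 0.13, edgeR adjusted p = 4.03e-16) with no overlap between the sides. Thus a feature highest in SST cortex was next highest in Scnn cortex and lowest in VIP cortex. By its mean, SST hippocampus (184.8 ± 42.9 CPM) came between Scnn and CamK cortex. Grik hippocampus (45.7 ± 2.86 CPM), also glutamatergic, lay under PV cortex. GSMG0050870 differed by -2.22 between the pooled sides (SE 0.13, edgeR adjusted p = 5.35e-15). It was at 76.3 ± 7.18 CPM in CamK and 5.36 ± 1.98 CPM in PV, while VIP (24.4 ± 3.03 CPM) overlapped Scnn (29.4 ± 3.60 CPM).

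PV and VIP cortex differed from each other in many members, in both directions. The rule capped both groups at the same level, and all members passed the filter on low counts through SST cortex. In VIP against PV, 30 members were called higher (20.7% of all features) and 20 lower (8.87% of all features). Among features at 1 CPM in SST cortex the shares were 13.5% and 11.4%. The median log2 difference was 0.39 over the members and 0.23 over all features. GSMG0019206 read 1.34, 1.48, 0.947 and 1.08 CPM in VIP and at most 0.0381 CPM in PV, a log2 difference of 5.68 (SE 0.58, edgeR adjusted p = 5.73e-10). GSMG0001340 was at 1.28 ± 0.292 CPM in VIP and 0.0599 ± 0.0654 CPM in PV (log2 difference 4.11, SE 0.60, adjusted p = 5.83e-07). Neither overlapped between the populations. GSMG0020764 had the opposite pattern, with 20.6, 13.4, 18.6 and 13.7 CPM in PV and 0.579, 0.734, 0.888 and 0.300 CPM in VIP. Its log2 difference was -5.00 (SE 0.29, edgeR adjusted p = 2.12e-15). With 41.9 ± 4.59 CPM in SST cortex and 12.1 ± 3.91 CPM in SST hippocampus, it was high in SST and PV, and no other group had a mean above 1.25 CPM. GSMG0020967 was also lower in VIP (0.127 ± 0.0723 CPM) than in PV (1.11 ± 0.215 CPM), by -3.40 on the log2 scale (SE 0.62, adjusted p = 1.91e-05). VIP carries the W and PV does not, so population and title series cannot be told apart here.

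Region was compared within CamK neurons, which the rule did not set against each other. The rule did cap both CamK groups at the same level, and all members passed the filter on low counts through SST cortex. In CamK hippocampus against CamK cortex, 20 of 90 members were called lower in the hippocampus (8.46% of all features) and 11 higher (5.43%), while 59 did not pass. Among features at 1 CPM in SST cortex the shares were 7.63% and 3.8%. The median log2 difference was -0.43 over the members and near 0 over all features. GSMG0023649 read 1.34, 0.598, 0.724 and 0.939 CPM in CamK hippocampus and at most 0.0372 CPM in CamK cortex (log2 difference 5.84, SE 0.67, edgeR adjusted p = 1.49e-08). GSMG0029117 was likewise higher in hippocampus, at 2.36 ± 0.552 CPM against 0.265 ± 0.126 CPM (3.09, SE 0.42, adjusted p = 3.45e-07). Both were therefore highest in SST neurons of the cortex and, within CamK neurons, higher in the hippocampus. GSMG0003832 went the other way, from 0.946, 1.09, 1.41 and 0.582 CPM in CamK cortex to 0.101 ± 0.120 CPM in CamK hippocampus (-3.37, SE 0.58, edgeR adjusted p = 1.86e-05). GSMG0011728 was called lower too (adjusted p = 0.00254), on 2 counts in hippocampus and 34 in cortex, a ratio of 0.0580 (95% exact Clopper-Pearson interval from 0.00675 to 0.226, for counting error only). The W stands in the titles of CamK hippocampus but not of CamK cortex, and the effects of region and of that series cannot be told apart. The comparisons with PV and VIP cortex and with CamK hippocampus share the CamK cortex libraries. The comparison of SST hippocampus with CamK and Grik shares the CamK hippocampus libraries with the one given here. VIP against PV shares its libraries with the pooled cortical comparison. The 2 counts of GSMG0011728 in CamK hippocampus thus entered both of its calls.

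**Figure D5:**
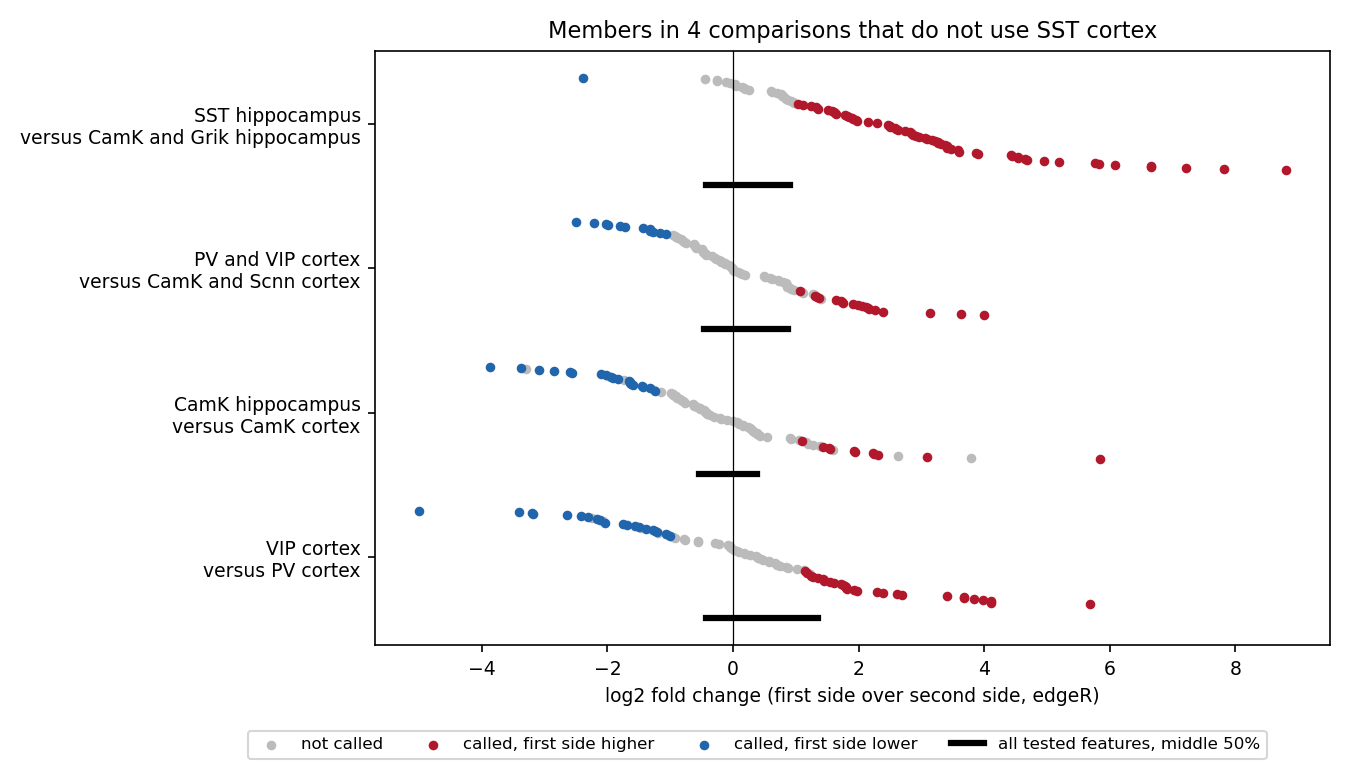
Log2 fold changes (edgeR, first side over second side) of the 90 members in the 4 comparisons with SST cortex on neither side. Members are sorted within each, with called members in colour. Black bars span the middle 50% of all 24555 features. In the top row 64 members are called higher and 1 lower, and in the other rows calls fall on both sides.

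The SST cortex libraries did not contribute evenly. SST cortex replicate 2 was the highest of the 4 libraries in 38 of 90 members and the lowest in 10, and replicate 3 was the lowest in 48 and the highest in 8. Over the 13536 features at 1 CPM in SST cortex, replicate 2 was highest in 18.1% and lowest in 32.8%, and replicate 3 was lowest in 23.8% and highest in 35.6%. The part of these libraries in single levels was not tested. The median coefficient of variation across the SST cortex libraries was 14.2% over all 90 members. It was 9.85% in the 7406 other features whose SST cortex level lay between the members' quartiles, so these medians cover unlike ranges of level.

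Members spanned 534 to 7829 bases of deposited length, with a median of 1734.5 bases. The median was 1450 bases over features at 1 CPM in SST cortex, whose quartiles were 892 and 2500 bases. Of the members, 23.3% were shorter than 1000 bases, against 30.8% of those features. The submitters' notes name featureCounts, but how reads that fit several features were handled is not stated. Features that overlap or share near-identical sequence are therefore uncertain.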

How the data were processed

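Per the submitters' processing notes, the build was GRCm38 and FastQC, Picard, SAMtools and featureCounts were used. Aligner, annotation and use of strand: not given in the sources used here. Per the labels' protocols, library input was 50 ng of RNA, prepared with a stranded kit that selects polyadenylated RNA. The values deposited by the authors were read in as deposited expected counts, 1 column per library, since they need not be whole. The table also holds 12 columns that match no sample and were not used. The deposited length per feature was taken as bases.

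CPM values are counts over the column total. For tests, counts were rounded and fitted in edgeR 4.0.16 (R 4.3.3) over all 32 libraries with TMM scaling, filterByExpr, 1 coefficient per group and 24 residual degrees of freedom. Adjusted p-values are Benjamini-Hochberg over all 24555 features tested. A standard error is the log2 fold change over the square root of F. The fit was tested on simulated data. Named members were those with the 2 largest ratios, the 2 highest levels, those next to the limit on each side, and the 2 largest called differences each way per comparison. The members, lists and tests were chosen with earlier results of these data known. Gene marker lists could not be applied. Alternatives were other scalings, filters and limits, DESeq2 1.42.0, a replicate block and leaving out each library. No 2 replicates agreed within sampling noise (lowest chi-square per degree of freedom 22.7).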

Additional observations from a re-analysis of the deposited data

Results flagged for a closer look

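In 10 of 95 sets of 4 replicate libraries checked, 1 library lay apart from the others by a share of the range above Dixon's 95% critical value. Chance marks about 1 in 20 such groups, and in 2 of the 10 the other 3 libraries were at 0, where any count is marked by construction, which leaves 8. GSMG0023525 stood at 27.7 CPM in SST hippocampus replicate 5 and between 4.71 and 6.35 CPM in the others. GSMG0011728 stood apart in the same library, at 2.63 CPM against 1.505 to 1.67 CPM. It was also at 0.192 CPM in CamK cortex replicate 3 against at most 0.0571 CPM, at 0.0187 CPM in CamK hippocampus replicate 2 and at 0.0362 CPM in Grik hippocampus replicate 5, with 0 in the other libraries of those hippocampal groups. GSMG0015581 stood at 127.2 CPM in PV cortex replicate 1 against 18.7 to 35.5 CPM. GSMG0029117 stood at 3.19 CPM in CamK hippocampus replicate 3 against 1.99 to 2.16 CPM. Low libraries were Grik hippocampus replicate 3 for GSMG0038640 (0.837 CPM against 1.25 to 1.31 CPM), VIP cortex replicate 1 for GSMG0028820 (2.02 CPM against 3.91 to 4.06 CPM) and VIP cortex replicate 1 for GSMG0020967 (0.0195 CPM against 0.151 to 0.174 CPM).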

How the results depend on the processing

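The size of the set followed its limits: 184 members at a fold limit of 1.5, 35 at a limit of 3 and 48 with a minimum of 5 CPM, against 90. With TMM-normalised CPM 86 of the 90 were kept, with DESeq2 size factors 84. Leaving out 1 library gave 87 to 96 members, and 75 of the 90 were in all 32 of those sets. The 64 members higher in SST hippocampus became 61 to 73 under other settings and 62 to 66 without 1 library. The number lower there was 1, or 1 to 2 without 1 library, 3 against CamK alone and 2 against Grik alone (both chosen after seeing the data). In PV and VIP against CamK and Scnn, 22 members were lower without the fold threshold. Replicate numbers did not pair the libraries (0 of 22 pairs of groups had all correlations of same-numbered deviations over 0.1), and with the replicate block 64 members were higher and 1 lower in SST hippocampus. The called differences of the named members kept their direction and call under all alternatives in which the member was tested. Depth limits values that rest on 3 counts or fewer in a library.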

Other observations

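Identifiers of 8 members are consecutive, in 4 pairs, and in each pair both features had the same next highest group. These pairs were chosen after their values were seen. GSMG0001339 and GSMG0001340 stood at 1.44 and 3.19 CPM in SST cortex, 0.577 and 1.28 CPM in VIP cortex, 0.374 and 0.787 CPM in SST hippocampus, and at no more than 0.252 CPM in the remaining groups. GSMG0019205 and GSMG0019206 had the order SST cortex (1.96 and 8.002 CPM), SST hippocampus (0.391 and 2.01 CPM), VIP cortex (0.255 and 1.21 CPM). GSMG0020255 and GSMG0020256 followed SST cortex (1.36 and 5.97 CPM) with SST hippocampus (0.518 and 2.49 CPM). GSMG0011465 and GSMG0011466 were at 3.33 and 1.86 CPM in SST cortex but differed in VIP cortex, at 0.0518 and 0.539 CPM. The share of members with a consecutive identifier in the set was 8.89%, and in the sets that the same rule gave for the other 7 groups, of 61 to 812 features, it was 4.08% to 10.4%. What the numbering follows is not given in the sources used here, so it was not tested whether such pairs are neighbours in the genome or parts of 1 transcript unit.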
